A study of Mus musculus with 2 samples.

Results

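5 genes best known outside the immune system, Cxcl12, Igfbp7, Grm6, Cyp11a1 and Csrp3, were followed in mouse bone marrow cells, mainly of the basophil lineage. They were found by symbol among the 31053 genes of the deposited count tables and had been chosen from values measured in these same libraries, so their detection here is a description and was not tested. The data came from droplet single-cell RNA-seq of bone marrow cells sorted for surface E-cadherin, with 1 library of E-cadherin+cKIT+ cells and 1 of E-cadherin+cKIT- cells. The labels give the strain as FVB, and the study's text gives wild-type mice in one place and VaviCre;mTmG mice in another, 3 in number, in which Cre driven by Vav in haematopoietic cells switches on a GFP reporter. No age is stated in the sources used here and the cells were not assigned to single mice. With 1 library per sort there is no replicate check and no test between the sorts. Levels are given as CPM, the UMIs (single counted transcript molecules) of a gene per 1000000 UMIs of the same cells, and the ranges in brackets are exact 95% intervals that cover counting error only.

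After the study's own limits on genes and UMIs per cell, 6479 of 6632 E-cadherin+cKIT+ and 3662 of 3745 E-cadherin+cKIT- barcodes were kept, with medians of 13039 and 4416.5 UMIs, and 10 barcode sequences occurred in both libraries. Cells were called Mcpt8-positive when they held at least 3 UMIs of Mcpt8, a basophil granule protease gene, making up at least 0.1% of their UMIs. This was met by 3774 E-cadherin+cKIT+ cells (58.2%) and 2934 E-cadherin+cKIT- cells (80.1%), with 79 and 55 cells of the libraries lying within 10% of the 0.1% limit. Of 11 basophil markers, 10 were at 5 CPM or more in these cells of E-cadherin+cKIT+ and 11 in those of E-cadherin+cKIT-, a level that 28.5% and 27.9% of all genes reached. Mcpt8, which chose the cells, and Prss34, which later ordered them, are among these markers, and of the others Fcer1a stood at 605 and 1535 CPM and Ms4a2 at 1312 and 2068. Markers of other cells were present as well, with 8 and 7 of 8 neutrophil markers and 6 and 5 of 6 granulocyte/monocyte progenitor markers at 5 CPM or more, summing to 4797 and 883 CPM and to 10044.6 and 5678 CPM, and their part in the results was not tested. Of 7 mast cell markers, 2 reached 5 CPM in E-cadherin+cKIT+ and 1 in E-cadherin+cKIT-, against the same 28.5% and 27.9% of all genes. The highest of them stood at 34.65 and 13.66 CPM. In both sorts 5 were under 1 CPM, where the median gene also lay, at 0.0358 and 0 CPM. Kit stood at 23.0 CPM in the Mcpt8-positive cells of E-cadherin+cKIT+ and at 0.979 CPM in those of E-cadherin+cKIT-, the direction of the sort. The Mcpt8-positive cells of E-cadherin+cKIT+ were deeper, with a median of 14011.5 against 5412.5 UMIs, so shares of cells with a UMI were compared after each cell had been thinned to 2000 UMIs.

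Basophils arise in bone marrow from granulocyte-macrophage progenitors through dividing precursors that lose cKIT, the receptor for stem cell factor, and they leave the marrow as non-dividing granulocytes. They fill their granules with proteases such as those encoded by Mcpt8 and Prss34, and GATA factors are needed for the lineage. None of the 5 genes is a classical gene of these cells. Cxcl12 encodes the chemokine with which marrow stromal cells hold CXCR4-bearing cells in place. Igfbp7 encodes a secreted protein related to the insulin-like growth factor binding proteins and is abundant in vessel walls. Grm6 encodes a metabotropic glutamate receptor through which ON bipolar cells of the retina sense photoreceptor input. Cyp11a1 encodes the mitochondrial side-chain cleavage enzyme that turns cholesterol into pregnenolone, the first step of steroid synthesis, and has been described in some immune cells. Csrp3 encodes muscle LIM protein, a cytoskeletal protein of striated muscle.

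By the GENCODE M21 annotation of GRCm38, the build to which mm10 corresponds, Igfbp7 lies at chr5:77349240-77408041 on the minus strand, Grm6 at chr11:50850685-50866208 on the plus strand, Cyp11a1 at chr9:58006411-58027023 on the plus strand, Csrp3 at chr7:48830398-48848033 on the minus strand and Cxcl12 at chr6:117168535-117181367 on the plus strand. Csrp3 and Cxcl12 overlap no other annotated gene. Igfbp7 meets the 3′ end of Polr2b on the opposite strand (56.0 and 42.4 CPM in Mcpt8-positive cells of E-cadherin+cKIT+ and E-cadherin+cKIT-), and the other 3 overlapping genes, Gm34648, Gm12660 and Gm17322, held between 1 and 15 UMIs in either library. RefSeq promoter windows on GRCm38.p6, from 250 bases before to 50 bases after a start site, are shown for the 4 genes whose UMIs were spread over Mcpt8-positive cells, since they differ in base composition and in GATA matches. Capitals mark the letters GATA with A or T before and A or G after them, on either strand, which 29.8% of all 32851 windows of this length held at least once.
Igfbp7, chr5:77407996-77408295, strand -: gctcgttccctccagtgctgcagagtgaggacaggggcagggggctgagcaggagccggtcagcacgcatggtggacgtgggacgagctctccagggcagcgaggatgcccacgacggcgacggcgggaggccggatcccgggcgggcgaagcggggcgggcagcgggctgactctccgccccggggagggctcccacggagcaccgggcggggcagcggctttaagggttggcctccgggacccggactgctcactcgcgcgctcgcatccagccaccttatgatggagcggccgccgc
Grm6, chr11:50850435-50850734, strand +: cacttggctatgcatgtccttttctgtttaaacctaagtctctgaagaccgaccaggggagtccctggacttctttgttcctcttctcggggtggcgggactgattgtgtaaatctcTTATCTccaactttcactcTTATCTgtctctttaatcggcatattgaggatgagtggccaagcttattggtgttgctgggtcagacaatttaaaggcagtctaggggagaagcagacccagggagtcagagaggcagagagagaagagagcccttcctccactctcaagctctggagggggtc
Cyp11a1, downstream start, chr9:58014702-58015001, strand +: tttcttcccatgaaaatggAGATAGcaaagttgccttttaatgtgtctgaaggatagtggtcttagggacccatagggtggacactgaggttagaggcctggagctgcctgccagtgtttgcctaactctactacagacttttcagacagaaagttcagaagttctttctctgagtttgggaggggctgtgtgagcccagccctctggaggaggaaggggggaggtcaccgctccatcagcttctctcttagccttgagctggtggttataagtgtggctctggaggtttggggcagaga
Csrp3, upstream start, chr7:48848002-48848301, strand -: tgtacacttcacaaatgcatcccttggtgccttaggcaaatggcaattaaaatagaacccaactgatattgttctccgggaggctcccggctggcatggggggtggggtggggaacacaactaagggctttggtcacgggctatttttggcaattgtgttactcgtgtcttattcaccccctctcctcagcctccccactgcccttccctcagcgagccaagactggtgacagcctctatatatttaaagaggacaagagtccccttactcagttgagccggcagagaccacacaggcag
Csrp3, downstream start, chr7:48843622-48843921, strand -: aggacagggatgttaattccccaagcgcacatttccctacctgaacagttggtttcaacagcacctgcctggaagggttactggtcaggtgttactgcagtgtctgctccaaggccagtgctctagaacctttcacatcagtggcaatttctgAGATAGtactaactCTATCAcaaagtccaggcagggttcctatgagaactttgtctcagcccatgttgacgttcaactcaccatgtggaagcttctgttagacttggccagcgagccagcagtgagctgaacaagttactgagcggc
The Grm6 window held 2 such matches, starting 133 and 114 bases before the start site, and 7.77% of all windows held at least 2. The downstream Csrp3 window also held 2, at 97 and 83 bases, the downstream Cyp11a1 window 1, at 231 bases, and those of Igfbp7, Cxcl12, the upstream start of Csrp3 and the upstream start of Cyp11a1 none. The upstream Csrp3 window held 2 matches to the C/EBP letters TTGCNNAA, at 219 and 105 bases, and 0.773% of all windows held that many. Neither Cyp11a1 window held the exact letters AAGGTCA, searched for SF-1, which drives Cyp11a1 in steroid-making tissue. Looser spellings were not searched. Neither window covers the GENCODE start of Cyp11a1 at chr9:58006411, so the search does not speak to that start. The Igfbp7 window was the richest in CpG, with 33 pairs and 73.3% GC, against 20 pairs for Cxcl12, 4 for Grm6, 4 and 6 for the Csrp3 windows, 1 and 7 for the Cyp11a1 windows and a median of 7 over all windows. Letter matches are descriptions and were not tested as binding sites.

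Cxcl12 was seen almost wholly in 1 cell. The 84 Cxcl12 UMIs in Mcpt8-positive cells of E-cadherin+cKIT+ amounted to 1.50 CPM (1.20 to 1.86), and 81 of them came from 1 cell. No UMI was seen in the 2934 Mcpt8-positive cells of E-cadherin+cKIT-, with an exact upper limit of 0.181 CPM. Set against 3 counts there, or 0.147 CPM, the level in E-cadherin+cKIT+ was 10.2-fold higher. That 1 cell held 11339 UMIs, with 218 of Mcpt8 and 316 of Prss34, and Scrublet did not call it a doublet. It also carried 20 UMIs of Ibsp, 13 of Gas6, 13 of Esm1 and 8 of Sparc, transcripts of stromal, bone and vessel cells, chosen after the cell had been found. Of the 12 markers listed for CXCL12-abundant reticular stroma, 5 were present in it, with 11 UMIs in all, among them 4 of Adipoq and 3 of Col1a2, while Lepr and Pdgfra were at 0. It was the 1 kept cell in either library with at least 3 of these markers. Without it, 3 UMIs in 3 cells remained, or 0.0538 CPM (0.0111 to 0.157), under the 0.147 CPM of 3 counts, so the fold rests on this cell. A second barcode of this kind lay in E-cadherin+cKIT- outside the kept cells, with 15 Cxcl12 UMIs among 687, 7 of Ibsp, 6 of Gas6 and no Mcpt8. The part of stromal RNA in these counts was not tested.

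**Figure D1:**
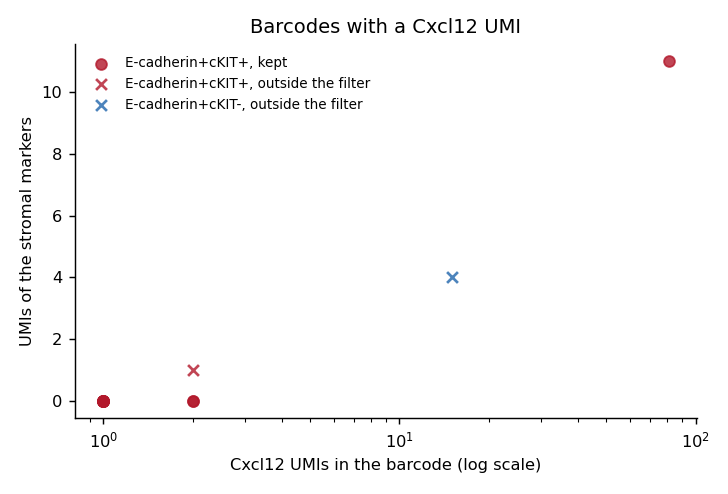
All 13 barcodes with a Cxcl12 UMI, by Cxcl12 UMIs (x axis, log scale) and summed UMIs of the 12 stromal markers (y axis); circles are kept cells, crosses lie outside the filter, red is E-cadherin+cKIT+ and blue E-cadherin+cKIT-, and points at 1 and 2 UMIs coincide. The barcode with 81 Cxcl12 UMIs also has the most stromal marker UMIs, 11, and that with 15 has 4.

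The other 4 genes were each at higher level in Mcpt8-positive cells than in the remaining kept cells of both libraries. They had been chosen from these libraries, and the share of all genes higher in Mcpt8-positive cells was not computed. Cdh1, the E-cadherin gene, was higher as well, at 94.9 against 12.0 CPM in E-cadherin+cKIT+ and 202 against 122 in E-cadherin+cKIT-. Kit was lower in Mcpt8-positive cells of E-cadherin+cKIT+, at 23.0 against 59.4 CPM. Igfbp7 stood at 119 CPM (117 to 122) in Mcpt8-positive cells of E-cadherin+cKIT+ and at 6.66 CPM in the other cells, and at 465 (456 to 475) and 169 CPM in E-cadherin+cKIT-. Grm6 was the scarcest, with 16.5 CPM (15.5 to 17.6) against 0.340 CPM in E-cadherin+cKIT+ and 76.3 (72.6 to 80.2) against 44.2 CPM in E-cadherin+cKIT-. Cyp11a1 reached 309 CPM (304 to 313) against 29.4, and 561 (551 to 571) against 403. Csrp3 was the most abundant of them by UMIs, at 701 CPM (694 to 708) against 244 in E-cadherin+cKIT+, and at 776 (764 to 789) against 387 in E-cadherin+cKIT-. In the 3′ tag counts, which were not scaled for transcript length, Csrp3 ranked 189 and 175 among 31053 genes in the Mcpt8-positive cells of E-cadherin+cKIT+ and E-cadherin+cKIT-, Cyp11a1 397 and 229, Igfbp7 1128 and 284, and Grm6 5942 and 1931. The median gene stood at 0.0358 and 0 CPM.

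The UMIs of these 4 genes were spread over many cells. The cell with the most UMIs held 0.315% of the Igfbp7 UMIs of Mcpt8-positive cells in E-cadherin+cKIT+ and 0.252% in E-cadherin+cKIT-, and at most 0.651% for any of the 4. At 2000 UMIs per cell, Csrp3 was seen in 71.3% of Mcpt8-positive cells of E-cadherin+cKIT+ (69.9 to 72.8) and 76.9% of those of E-cadherin+cKIT- (75.3 to 78.5). Cyp11a1 was seen in 45.3% (43.7 to 46.9) and 70.5% (68.8 to 72.1). Thinning left out 89 and 70 shallower cells. Igfbp7 was seen in 19.6% (18.3 to 20.9) and 54.3% (52.4 to 56.1), and Grm6 in 3.77% (3.18 to 4.44) and 16.6% (15.3 to 18.0). Without thinning the shares were 95.3% and 95.2% for Csrp3, 90.8% and 94.1% for Cyp11a1, 56.3% and 80.1% for Igfbp7, and 18.3% and 37.7% for Grm6. In the thinned cells of E-cadherin+cKIT+ that were not Mcpt8-positive (median 10677 UMIs before thinning), Csrp3 was seen in 27.8%, Cyp11a1 in 6.17%, Igfbp7 in 1.51% and Grm6 in 0.204%.

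**Figure D2:**
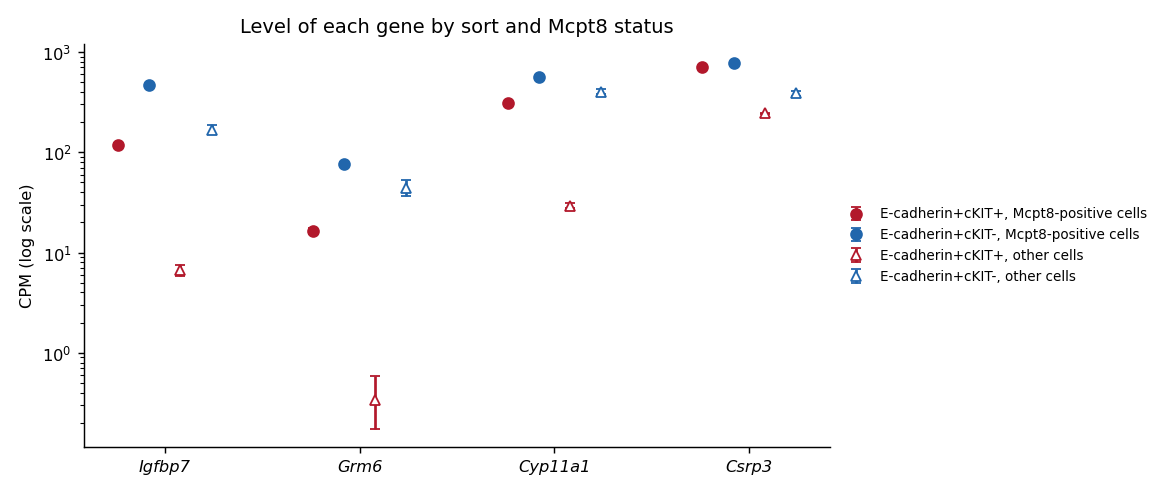
CPM (log scale) of the 4 genes in Mcpt8-positive cells (filled circles) and in all other kept cells (open triangles) of the E-cadherin+cKIT+ (red) and E-cadherin+cKIT- (blue) library, with 95% counting intervals. Each of the 4 genes is higher in Mcpt8-positive than in other cells of its library, and Grm6 spans the widest range, from 0.340 to 76.3 CPM. The share of all genes higher in Mcpt8-positive cells was not computed.

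The cells outside the Mcpt8 limit were not empty of these transcripts, and clustering showed where they sat. 25 clusters were made with the 5 genes left out of the clustering, 12 of them basophil-like by their markers. Over the 7172 basophil-like cells of both libraries the level was 205 CPM for Igfbp7, 31.8 for Grm6, 364 for Cyp11a1 and 751 for Csrp3. The basophil-like clusters held 3385 of the 3774 Mcpt8-positive cells of E-cadherin+cKIT+ and 2903 of the 2934 of E-cadherin+cKIT-. The rest in E-cadherin+cKIT+ included 161 low-depth eosinophil-like, 70 eosinophil-like and 53 neutrophil-like cells, and stayed in the comparisons of Mcpt8-positive cells. In the 3385 cells alone Igfbp7 stood at 126 CPM, Grm6 at 17.4, Cyp11a1 at 320 and Csrp3 at 732. In E-cadherin+cKIT-, 351 basophil-like cells fell under the Mcpt8 limit, with 488 CPM of Mcpt8, and still held 1139 CPM of Cyp11a1, 1093 of Csrp3, 438 of Igfbp7 and 121 of Grm6. These were shallow cells, with a median of 2460 UMIs, and they held 336 CPM of Cdh1, the E-cadherin gene, no Kit UMI and 2107 CPM of Ms4a2, a chain of the IgE receptor. In E-cadherin+cKIT+ the 533 basophil-like cells under the limit had a different make-up, with Csrp3 at 774 CPM but Cyp11a1 at 54.2, Igfbp7 at 15.7 and Grm6 at 0.884 CPM, and Kit at 53.9 CPM. Fcer1a stood at 50.5 CPM in them, against 637 in Mcpt8-positive basophil-like cells of that library, and Ms4a2 at 922 against 1363. In E-cadherin+cKIT-, Fcer1a stood at 707 CPM under the limit and 1542 in the Mcpt8-positive ones.

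Classes of other cells were low in all 4 genes, with a few exceptions. Granulocyte/monocyte progenitor-like cells (518 cells, median 25852.5 UMIs) held 26.5 CPM of Csrp3, 8.07 of Cyp11a1, 5.46 of Igfbp7 and 0.299 of Grm6. At full depth 18.5% of them had a Csrp3 UMI (15.3 to 22.2) and 0.772% a Grm6 UMI (0.211 to 1.97), against 95.3% and 18.3% of the shallower Mcpt8-positive cells of that library. Of these progenitor-like cells 7.53% were themselves Mcpt8-positive, and the source of their counts was not tested. Neutrophil-like cells of E-cadherin+cKIT+ had 108 CPM of Csrp3 and eosinophil-like cells 104, and 12.3% and 20.4% of those cells were themselves Mcpt8-positive. The low-depth eosinophil-like cells (387 cells) held more, with 296 CPM of Csrp3, 107 of Cyp11a1 and 38.1 of Igfbp7, and 41.6% of them were Mcpt8-positive. Monocyte-like cells were lowest in Csrp3, with 3.18 CPM from 3 UMIs (0.656 to 9.29). A cluster of 441 E-cadherin+cKIT+ cells that was left unnamed, led by Gzmb, Cma1 and Hes1, held 572 CPM of Csrp3 and 198 of Cyp11a1 but 10.1 of Igfbp7 and 1.51 of Grm6, with 12.0% of its cells Mcpt8-positive. Basophil-like cells of the same library held 737, 284, 111 and 15.2 CPM of Csrp3, Cyp11a1, Igfbp7 and Grm6. Per 100 UMIs of Mcpt8, Csrp3 stood at 4.48 UMIs in basophil-like, 4.78 in neutrophil-like, 7.28 in eosinophil-like and 7.65 in low-depth eosinophil-like cells. It stood at 5.30 in granulocyte/monocyte progenitor-like cells, 1.32 in monocyte-like cells and 47.1 in the unnamed cluster. The source of the counts in these classes was not tested.

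Igfbp7 in the macrophage-like cluster sat in a few cells with endothelial markers. Of the 118 cells of this cluster in both libraries, 7 carried at least 3 endothelial markers and 63 Igfbp7 UMIs, or 2491 CPM (1914 to 3187), with no C1q UMI. The 111 cells without an endothelial marker held 2 Igfbp7 UMIs. Among Mcpt8-positive cells, 4 of 3774 and 2 of 2934 carried at least 3 endothelial markers, and Igfbp7 stood at 120 and 465 CPM without them.

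**Figure D3:**
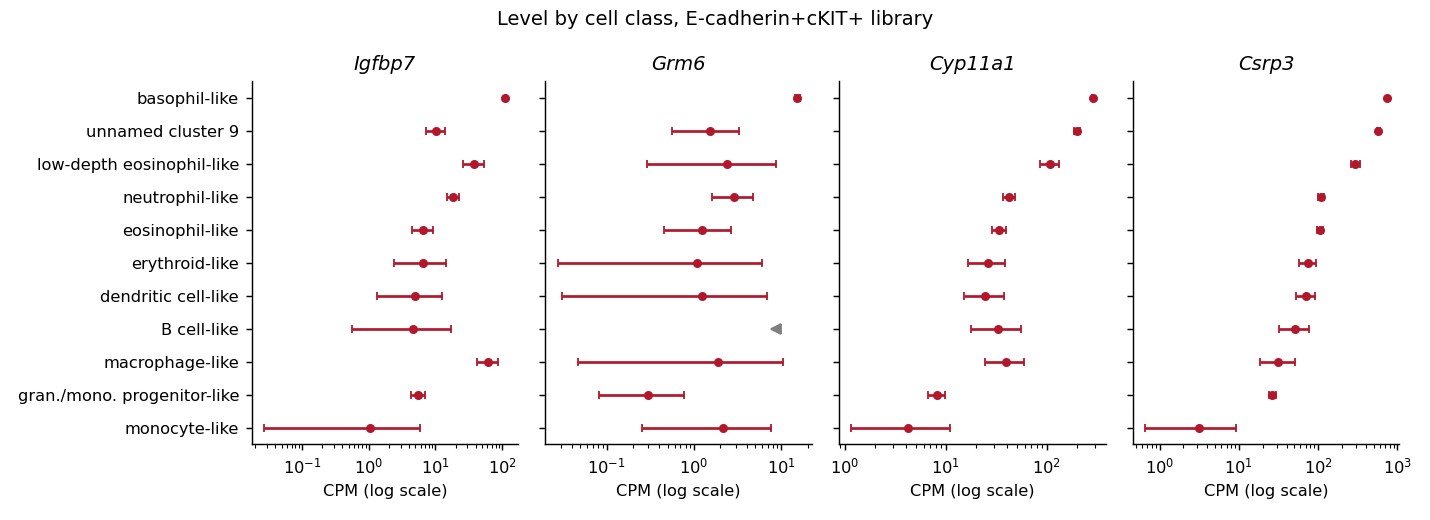
CPM (log scale) of the 4 genes by cell class in the E-cadherin+cKIT+ library, with 95% counting intervals; a grey arrowhead marks the upper limit of a class with no UMI. Csrp3 and Cyp11a1 are high in basophil-like cells and in unnamed cluster 9, whereas Igfbp7 at 10.1 and Grm6 at 1.51 CPM are low in that cluster.

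The sorts were compared next, since cKIT separates earlier from later cells of the lineage. Grm6 was 4.62 times higher in Mcpt8-positive cells of E-cadherin+cKIT- than in those of E-cadherin+cKIT+ (4.26 to 5.02), and Igfbp7 3.90 times (3.78 to 4.02). Cyp11a1 was 1.82 times higher (1.78 to 1.86) and Csrp3 1.11 times (1.09 to 1.13). For comparison, Mcpt8 was 1.63 times, Prss34 2.53 times and Cdh1 2.13 times higher, and the median over 3152 genes with at least 50 CPM in 1 sort was 1.03. Grm6 was the 1 gene of the 4 at or past 4-fold, and 1.52% of those 3152 genes were past it in this direction. Grm6 entered that count through the sort in which it was high. The call depended on the settings, since Grm6 was at 3.003 in cells with at least 1% of UMIs from Mcpt8, and Igfbp7 passed 4-fold at 5.59 in cells with 1 or more Mcpt8 UMIs and at 4.13 without the 10 most abundant genes in the total. The intervals around these ratios hold counting error alone, and neither the spread between mice nor the depth of the 2 libraries is in them.

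Prss34, whose protein is a granule serine protease of basophils, was then used to order the Mcpt8-positive cells within each library. Cells under 1% of UMIs from Prss34 were called Prss34-low (1642 of E-cadherin+cKIT+ and 1002 of E-cadherin+cKIT-) and those at 3% or more Prss34-high (929 and 1611), with between 1.36% and 7.68% of a library's cells lying within 10% of either limit. In E-cadherin+cKIT+, Igfbp7 stood at 45.9 CPM in Prss34-low and 264 CPM in Prss34-high cells, 5.75 times higher (5.37 to 6.16). Grm6 stood at 5.81 and 34.1 CPM, 5.87 times higher (4.84 to 7.15). Cyp11a1 stood at 239.7 and 402 CPM, 1.68 times higher (1.62 to 1.74). Csrp3 went the other way, from 748 to 629 CPM, a ratio of 0.840 (0.819 to 0.862). Igfbp7 was the 1 of the 4 genes counted as at least 2-fold higher in Prss34-high cells, as were 3.04% of 2958 genes with at least 50 CPM, and it passed the 50 CPM limit through the group in which it was high. Grm6 was below 50 CPM in both groups and so was not in that count. The sizes depended on how the cells were chosen, and over 10 other settings the ratio ran from 3.62 to 10.9 for Igfbp7, 2.67 to 12.2 for Grm6 and 1.24 to 3.28 for Cyp11a1. For Csrp3 it ran from 0.757 to 1.33, so its direction depended on the setting.

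In E-cadherin+cKIT- the same ordering turned 2 of the 4 genes round. Igfbp7 was again higher in Prss34-high cells, at 494 against 382 CPM, 1.29 times the level (1.22 to 1.37). Grm6 stood at 64.5 CPM in Prss34-high and at 130.3 CPM in Prss34-low cells, a ratio of 0.495 (0.442 to 0.555). Cyp11a1 was at 0.472 of its Prss34-low level (0.453 to 0.493), from 974 to 459.9 CPM, and Csrp3 at 0.474 (0.458 to 0.491), from 1344 to 638 CPM. Grm6, Cyp11a1 and Csrp3 were at least 2-fold higher in Prss34-low cells, a size that 12.2% of 3361 genes reached. Grm6 and Cyp11a1 thus had opposite directions in the sorts, higher with Prss34 in E-cadherin+cKIT+ and lower with it in E-cadherin+cKIT-. This pair of directions was common, being shown by 31.3% of 3674 genes with at least 50 CPM in 1 of the 4 groups, and the difference between the sorts was not tested. The Prss34-low cells of E-cadherin+cKIT- were shallow, with a median of 3190 UMIs against 9172 in Prss34-high cells of that library.

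At 2000 UMIs per cell the shares moved in the same directions. Igfbp7 was seen in 8.80% of Prss34-low and 39.4% of Prss34-high cells of E-cadherin+cKIT+ and in 49.7% and 58.0% of those of E-cadherin+cKIT-. Grm6 was seen in 17 of 1579 and 68 of 925 cells, and then in 219 of 954 and 209 of 1606. The share with Cyp11a1 went from 38.1% to 54.1% in E-cadherin+cKIT+ and from 85.2% to 61.6% in E-cadherin+cKIT-. Csrp3 was seen in 73.1% and 67.1%, and in 89.8% and 69.4%.

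Deciles of the Mcpt8-positive cells by Prss34 share gave a finer view. In E-cadherin+cKIT+, Igfbp7 went from 29.5 CPM in the first decile to 354 in the last, Grm6 from 4.53 to 39.1 and Cyp11a1 from 223 to 409, each lowest in the first and highest in the last. In E-cadherin+cKIT-, Igfbp7 also went up, from 363 to 609 CPM. Cyp11a1 started there at 1043 CPM and reached its lowest, 439, in decile 7, and Grm6 started at 156 and reached 58.0 in decile 6. Csrp3 peaked at 1459 CPM in decile 3 and was lowest, at 559, in decile 9. Cdh1 had a like path in E-cadherin+cKIT-, from 356 to 154 CPM. Igfbp7, Grm6 and Cyp11a1 were each higher in all deciles of E-cadherin+cKIT- than in any decile of E-cadherin+cKIT+, whereas Csrp3 crossed over. Cdh1 was separated in the same way, with a lowest value of 154 CPM against a highest of 141, and Mcpt8 crossed over. The share of all genes separated in this way was not computed. For Igfbp7, Cyp11a1 and Cdh1 the counting intervals of the nearest deciles overlapped.

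**Figure D4:**
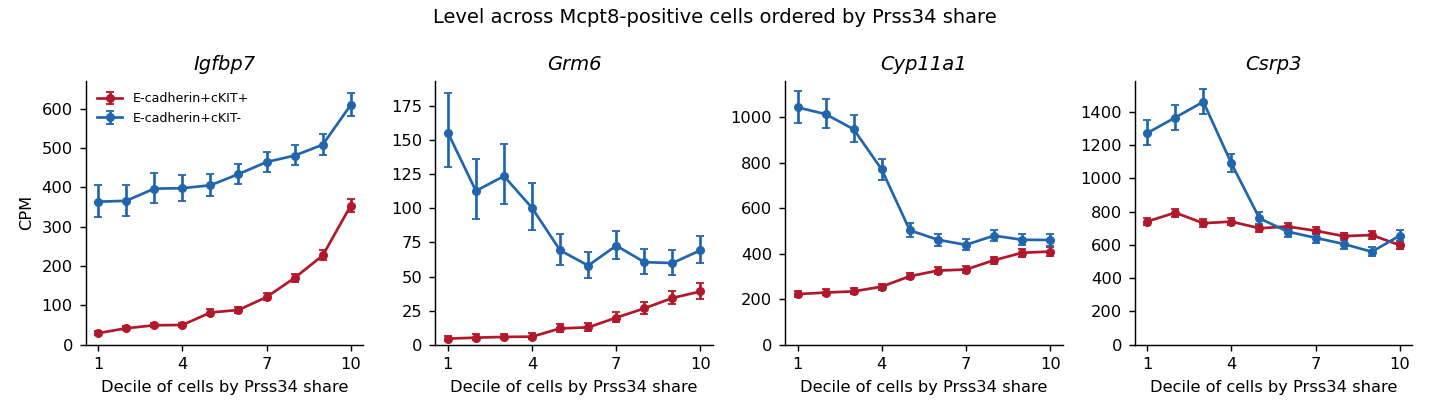
CPM of the 4 genes in deciles of the Mcpt8-positive cells ordered by their Prss34 share of UMIs (x axis, 1 lowest to 10 highest), for E-cadherin+cKIT+ (red) and E-cadherin+cKIT- (blue), with 95% counting intervals. Igfbp7 is highest in the last decile of both libraries, Grm6 and Cyp11a1 are highest in the last decile of E-cadherin+cKIT+ and in the first of E-cadherin+cKIT-, and Csrp3 peaks at 1459 CPM in decile 3 of E-cadherin+cKIT-.

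Cells with a low Prss34 share were at different points of the cell cycle in the sorts. The summed share of 41 genes of S phase and of G2 and mitosis was under 0.1% of UMIs in resting and at least 0.3% in cycling cells, which gave 748 resting and 2223 cycling Mcpt8-positive cells in E-cadherin+cKIT+ and 1559 and 1017 in E-cadherin+cKIT-. Of the 1002 Prss34-low cells of E-cadherin+cKIT-, 978 were resting and 13 cycling, whereas of the 1642 in E-cadherin+cKIT+, 457 were resting and 792 cycling. Between 2.15% and 4.74% of a library's cells lay within 10% of either limit. Cycling cells were also deeper, at a median of 17070 against 9639 UMIs in E-cadherin+cKIT+ and 10605 against 3581 in E-cadherin+cKIT-.

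Csrp3 was lower in cycling cells of both libraries. It stood at 975 CPM in resting, 772 in middle and 631 in cycling cells of E-cadherin+cKIT+, a ratio of 0.647 between cycling and resting (0.630 to 0.665), and at 1270 (1242 to 1297), 833 and 469 CPM in E-cadherin+cKIT-, a ratio of 0.369 (0.356 to 0.382). Cyp11a1 was lower in both as well, at 304 against 356 CPM (ratio 0.852, 0.816 to 0.890) and at 423 against 841 CPM (0.504, 0.484 to 0.524). Grm6 was lower in cycling cells of E-cadherin+cKIT-, at 57.6 against 114 CPM (0.507, 0.455 to 0.564), and did not differ beyond counting error in E-cadherin+cKIT+, at 16.8 against 15.6 CPM (1.07, 0.878 to 1.33). Igfbp7 was higher in cycling cells of E-cadherin+cKIT+, at 135 against 83.3 CPM (1.62, 1.48 to 1.76), and nearly level in E-cadherin+cKIT- (1.05, 1.00 to 1.10), where it was lower in cycling cells within the Prss34-high range (0.897, 0.843 to 0.954). Of the 4 genes only Csrp3 reached 2-fold in E-cadherin+cKIT-, where 8.78% of 3327 genes were at least 2-fold higher in resting cells. Medians over all genes with at least 50 CPM were 1.09 and 0.989 for the ratio of cycling to resting in the 2 libraries.

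Cells were then grouped by Prss34 range and cycle state together. Among resting cells alone, Csrp3 turned round in E-cadherin+cKIT+, with 1103 CPM in Prss34-high and 917 in Prss34-low cells (1.20, 1.12 to 1.30), and was nearer to level in E-cadherin+cKIT-, with 1154 against 1375 CPM (0.839, 0.7996 to 0.880). Among Prss34-high cells, cycling cells held 562 CPM against 1103 in resting ones in E-cadherin+cKIT+ (0.509, 0.474 to 0.547) and 465 against 1154 in E-cadherin+cKIT- (0.403, 0.385 to 0.423), and among Prss34-low cells of E-cadherin+cKIT+ the ratio was 0.755 (0.727 to 0.784). For Igfbp7 the reverse held in E-cadherin+cKIT+, where the Prss34 ratio stayed at 5.87 in resting cells (4.76 to 7.25) and the cycle ratio came to 1.11 within Prss34-high cells (0.958 to 1.29) and 1.17 within Prss34-low cells (0.992 to 1.39). Grm6 and Cyp11a1 kept their opposite Prss34 directions among resting cells, at 2.67 (1.64 to 4.27) and 1.40 (1.24 to 1.58) in E-cadherin+cKIT+ and at 0.684 (0.579 to 0.807) and 0.626 (0.588 to 0.666) in E-cadherin+cKIT-. The share of all genes with opposite directions among resting cells was not computed. Grm6 in Prss34-low cells of E-cadherin+cKIT+ was 4.26 CPM in cycling and 13.5 in resting cells (0.317, 0.217 to 0.463).

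**Figure D5:**
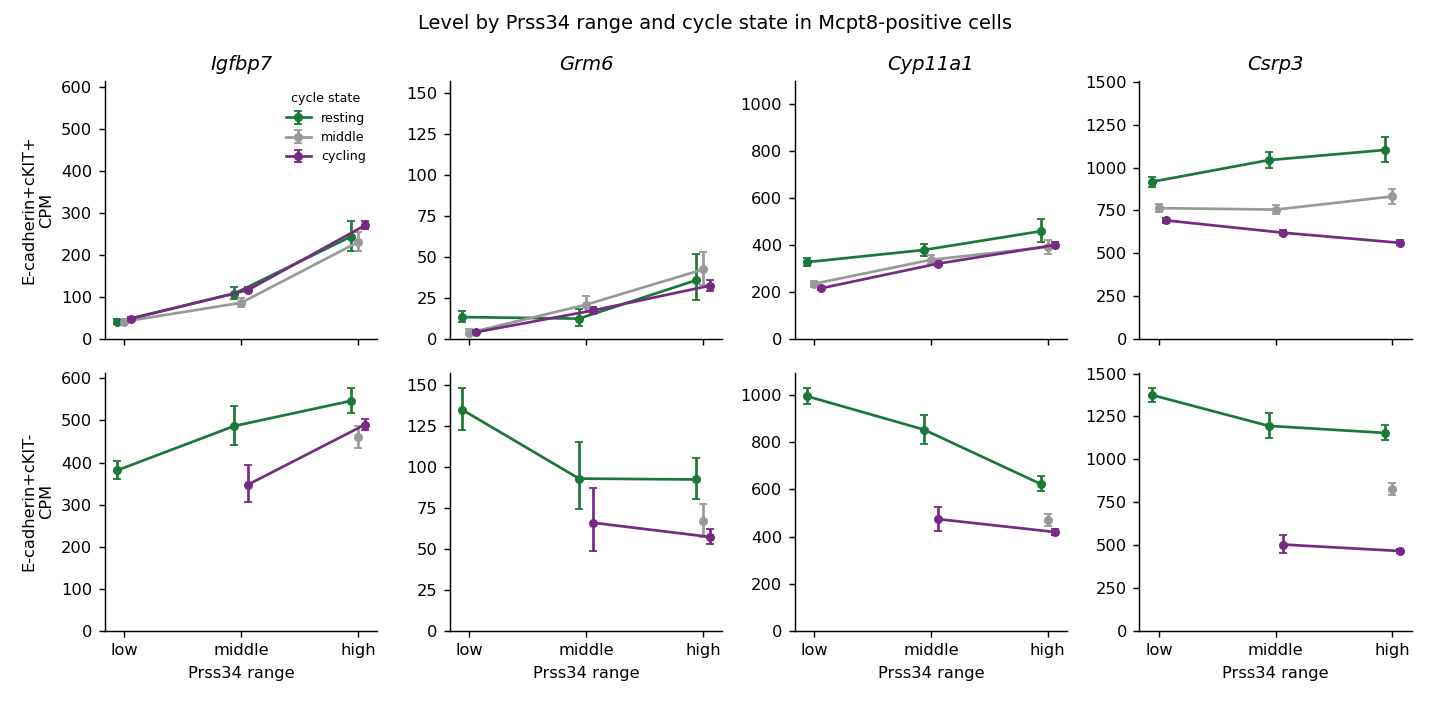
CPM of the 4 genes (columns) by Prss34 range (x axis) and cycle state (colours) in Mcpt8-positive cells of E-cadherin+cKIT+ (top) and E-cadherin+cKIT- (bottom), for groups of at least 50 cells, with 95% counting intervals. Csrp3 is lower in cycling than in resting cells in every range where both are shown. Igfbp7 is ordered by Prss34 range in E-cadherin+cKIT+. In E-cadherin+cKIT- its ranges overlap, with 348 CPM in cycling cells of the middle range and 382 in resting Prss34-low cells. Resting Prss34-low cells of E-cadherin+cKIT- have the highest Grm6, Cyp11a1 and Csrp3.

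15 groups of sort, Prss34 range and cycle state held at least 50 cells. Grm6, Cyp11a1 and Csrp3 were all highest in the 978 resting Prss34-low cells of E-cadherin+cKIT-, at 135, 996 and 1375 CPM, which had just 4491 CPM of Mcpt8 against 32439 in the resting Prss34-high cells of that library. Igfbp7 was highest in those 385 resting Prss34-high cells, at 547 CPM, and lowest, at 41.5 CPM, in the 457 resting Prss34-low cells of E-cadherin+cKIT+. Grm6 spanned 34.9-fold over the 15 groups, Igfbp7 13.2-fold, Cyp11a1 4.62-fold and Csrp3 2.95-fold.

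Between the sorts in groups of the same Prss34 range and cycle state, the size of the difference depended on the group. Such groups shared these ranges but were not otherwise alike. Resting Prss34-low cells of E-cadherin+cKIT+ and E-cadherin+cKIT- held 9409 and 4491 CPM of Mcpt8 and 56.9 and 0.311 CPM of Kit. Their median depths were 9568 and 3181 UMIs. In resting Prss34-low cells, Grm6 was 10.0 times higher in E-cadherin+cKIT- (7.60 to 13.5), Igfbp7 9.19 times (7.84 to 10.8), Cyp11a1 3.05 times (2.86 to 3.25) and Csrp3 1.50 times (1.44 to 1.57). In cycling Prss34-high cells the ratios were 1.76 (1.54 to 2.01), 1.81 (1.73 to 1.90), 1.05 (1.01 to 1.10) and 0.829 (0.797 to 0.861). Csrp3 was therefore higher in E-cadherin+cKIT- among resting Prss34-low cells and lower there among cycling cells, also in the middle Prss34 range (0.811, 0.728 to 0.900), and its ratio of 1.11 over all Mcpt8-positive cells joins both. The sort and the library cannot be told apart in any of these ratios.

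Across ranges of Mcpt8 in all kept cells of E-cadherin+cKIT-, 3 of the 4 genes were highest in the middle. Cells with less than 0.02% of UMIs from Mcpt8 held 159 CPM of Csrp3, 190 of Cyp11a1 and 18.0 of Grm6. Those with 0.2% to 0.5% held 1392 CPM of Csrp3, 1000 of Cyp11a1 and 145 of Grm6, against 632, 457 and 63.3 CPM in cells with 2% or more. Cyp11a1 was highest at 0.1% to 0.2%, with 1061 CPM. Igfbp7 was 81.2, 395 and 484 CPM in the same 3 groups. Cdh1, at 59.0, 315 and 171 CPM, and the chemokine gene Ccl3, at 711, 2914 and 1058, were also highest in the middle, while Fcer1a went up, at 119, 892 and 1691. The share of all genes highest in the middle was not computed. Cd79a, a B cell gene, was 1279, 6.02 and 4.23 CPM in the 3 groups. The first group therefore also held RNA of B-lineage cells, and the rise from it is not a course within basophils alone. In E-cadherin+cKIT+ Cyp11a1 and Grm6 had the opposite order, with 160 and 4.59 CPM at 0.2% to 0.5% and 385 and 29.2 CPM at 2% or more. Igfbp7 was again higher at 2% or more, with 197 against 26.8 CPM, while Csrp3 was 664 and 680 CPM. E-cadherin+cKIT+ cells with less than 0.02% of UMIs from Mcpt8 held 0.0784 CPM of Grm6, from 2 UMIs (0.00949 to 0.283), and 181 CPM of Csrp3.

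Genes that act with each member elsewhere were present in part. For Cxcl12, its receptor gene Cxcr4 was present at 155 CPM in both sorts and the scavenging receptor gene Ackr3 was at 0 in both. Hmgb1, whose protein binds CXCL12, stood at 272 and 313 CPM, Cd74 at 22.7 and 16.9, and Dpp4, whose protease cuts CXCL12, at 57.6 and 39.9996. Of 15 genes of the IGF and IGFBP family, 4 reached 5 CPM in either sort, near the 28.5% and 27.9% of all genes that did, and 9 were under 1 CPM. Igfbp4, another binding protein, ran against Igfbp7, with 400.1 CPM in E-cadherin+cKIT+ and 118 in E-cadherin+cKIT-. Igf1r, the receptor of the insulin-like growth factors, stood at 257 and 304 CPM, Cd93, a surface protein reported to bind IGFBP7, at 20.6 and 11.7, and Insr at 15.5 and 20.7, while Igf1 was at 0.269 and 0.0979 CPM and Igf2 at 0.

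The genes listed around Grm6 were low in Mcpt8-positive cells. Of 18 genes of the metabotropic glutamate receptors and the ON bipolar cascade, none reached 5 CPM in either sort, against 28.5% and 27.9% of all genes, and 10 and 12 were at 0. Trpm1, the channel at the end of the retinal cascade, was at 0 in both sorts, and Gpr179, an anchor of that complex, was at 1.06 and 0.685 CPM. The summed level of the 5 retinal ON bipolar markers was 1.22 and 1.32 CPM.

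Of 18 genes of steroid synthesis, 6 reached 5 CPM in either sort, near the share of all genes. Fdx1 and Fdxr, which pass electrons to it, stood at 55.8 and 22.9 CPM in E-cadherin+cKIT+ and 47.5 and 21.2 in E-cadherin+cKIT-. Tspo, a protein of the outer mitochondrial membrane, was at 751 and 1001 CPM and Stard3, a cholesterol carrier, at 18.1 and 23.8, and Por, a reductase, at 42.1 and 53.5, but Star, the main carrier in steroid-making glands, was at 1.38 and 1.03 CPM. Hsd3b1, Hsd3b2, Hsd3b6, Cyp17a1, Cyp21a1, Cyp11b2 and Cyp19a1 of the later steps had no UMI in either sort, with exact upper limits of 0.0661 and 0.181 CPM each. Nr5a1, which encodes SF-1, was at 0 as well, while Hsd17b1, a later enzyme gene, stood at 25.3 and 17.8 CPM and Srd5a1 at 4.66 and 1.66.

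Most genes listed around Csrp3 were low. Of 18 genes of the LIM-only family and striated muscle, 3 reached 5 CPM in E-cadherin+cKIT+ and 4 in E-cadherin+cKIT-, against 28.5% and 27.9% of all genes. Crip1, another LIM protein gene, stood at 778 and 1492 CPM, Csrp1, the close relative of Csrp3, at 144 and 176, and Csrp2 at 11.5 and 6.90. Fhl2 was at 1.25 and 12.0 CPM. Ttn and Tcap, partners of Csrp3 protein at the muscle Z-disc, were at 0.0179 CPM in E-cadherin+cKIT+ and 0.0490 in E-cadherin+cKIT-, and Myh6, Myh7, Actc1 and Tnnt2 at 0. The defining markers of steroid-making cells, striated muscle and ON bipolar cells were thus at or near 0 in Mcpt8-positive cells, and of the 12 stromal markers 11 and 12 were under 1 CPM, with Pdgfrb at 6.97 CPM in E-cadherin+cKIT+. Endothelial markers summed to 46.5 CPM in E-cadherin+cKIT+ and 18.3 in E-cadherin+cKIT-, and Egfl7 made up 42.0 and 16.7 CPM of these sums. The part of endothelial RNA in the Igfbp7 counts was not tested.

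The genes whose levels ran most like each member were taken over the 15 groups from 4026 genes with at least 50 CPM in 1 group, by Pearson's r of log2(CPM + 1). The groups share libraries, depth and total UMIs, so r is a description. Igfbp7 ran most like Cytip, Enpp5 and Anxa1 (r = 0.975, 0.974 and 0.973). Grm6 ran most like Ccr1, a chemokine receptor gene, Itga1, an integrin gene, and Hcst (r = 0.977, 0.977 and 0.976). Cyp11a1 ran most like Gabbr1, a GABA receptor gene, Emilin2 and AB124611 (r = 0.980, 0.979 and 0.978), and Csrp3 most like Lsm10, Matk and Smpdl3a (r = 0.948, 0.945 and 0.943). Among the members, Igfbp7 and Grm6 had r = 0.930, Grm6 and Cyp11a1 0.909, Cyp11a1 and Csrp3 0.539 and Igfbp7 and Csrp3 0.0987. Other genes ran closer than the members did. Of the 4026 genes, Grm6 ranked 39 among those most like Igfbp7 and 391 among those most like Cyp11a1. Cyp11a1 ranked 143 among those most like Grm6.

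In single cells thinned to 2000 UMIs, how far the members were seen together differed by pair and by sort. No expectation from the shares of single genes was computed. In E-cadherin+cKIT+, Igfbp7 was seen in 34.5% of the 139 Mcpt8-positive cells with Grm6 (26.7 to 43.1) and in 19.0% of those without it (17.8 to 20.4). In E-cadherin+cKIT- the same shares were 54.8% (50.2 to 59.4) and 54.1% (52.1 to 56.2), a difference within counting error. Csrp3 was seen in 80.7% of E-cadherin+cKIT- cells with Cyp11a1 (78.9 to 82.4) and in 68.0% of those without (64.7 to 71.1). Csrp3 and Igfbp7 went the other way in E-cadherin+cKIT+, by a small difference with overlapping intervals. There Csrp3 was seen in 68.3% of cells with Igfbp7 (64.8 to 71.7) and in 72.1% without (70.4 to 73.7). All 4 genes were seen at once in 0.488% of Mcpt8-positive cells of E-cadherin+cKIT+ and in 5.97% of those of E-cadherin+cKIT-, and none of them in 13.5% and 3.53%.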

How the data were processed

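Bone marrow cells from 2 sorts, E-cadherin+cKIT+ and E-cadherin+cKIT-, were each profiled as 1 droplet library. The values in the deposited matrices are unnormalised UMI counts, which the authors made with Cell Ranger 3.0.2 on mm10 per the submitters' processing notes. The annotation release is not given in the sources used here. Genes seen in at least 40 cells were used to find and leave out barcodes in the highest or lowest 1% of genes or highest 1% of UMIs, which left 10141 of 10377. Levels are summed UMIs per 1000000. Intervals are exact Poisson for levels and exact binomial for shares and ratios, at 95%. UMIs are molecules of 1 capture, so these cover counting error only. No p-value was computed because each condition had 1 library. Doublets were kept. Scrublet, through Scanpy 1.11.5, called 287 and 3 cells, and the highest scores (0.8% per 1000 cells) were left out as an alternative. Clusters came from Seurat 5.3.0 in R 4.3.3 with 2000 variable genes, 15 components, resolution 1 and the 5 genes left out. Python 3.11.15, SciPy 1.17.1, NumPy 2.4.6 and matplotlib 3.10.9 were used, and the scripts were tested on simulated data. Named genes were the 5 members, the members of gene lists and the 3 genes most like each member. The members, lists and limits were chosen with earlier results of these data known.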

Additional observations from a re-analysis of the deposited data

Results flagged for a closer look

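Grm6 and Cyp11a1 had opposite directions with Prss34 in the 2 libraries, a common pattern. Of 3674 genes with at least 50 CPM in 1 of the 4 groups, 31.3% had this pair of directions. The ratio of Prss34-high to Prss34-low cells was 5.87 for Grm6 in E-cadherin+cKIT+ and 0.495 in E-cadherin+cKIT-, and 1.68 and 0.472 for Cyp11a1. Among resting cells alone the ratios were 2.67 and 0.684 for Grm6, 1.40 and 0.626 for Cyp11a1, and 1.20 and 0.839 for Csrp3. The share of all genes with opposite directions among resting cells was not computed. With 1 library per sort, none of these differences was tested.

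A barcode of E-cadherin+cKIT- outside the kept cells, which no comparison used, held 15 Cxcl12 UMIs, whereas the kept Mcpt8-positive cells of that library held none.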

How the results depend on the processing

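No paired analysis was possible because each sort is a single library. Of the sort ratios, 28 of 29 values under other settings kept their direction, as did 78 of 80 for Prss34 and 75 of 80 for the cycle. Many moved beyond their narrow counting interval, and the causes were not tested. With cells taken at 1 or more Mcpt8 UMIs, the sort ratios were 5.59 for Igfbp7, 6.88 for Grm6, 2.64 for Cyp11a1 and 1.39 for Csrp3, Cxcl12 was at 1.08 CPM, and the Csrp3 Prss34 ratio of E-cadherin+cKIT+ reversed to 1.33, as it did to 1.20 in resting cells. With at least 1% of UMIs from Mcpt8 they were 3.14, 3.003, 1.34 and a reversed 0.944, Cxcl12 was at 2.07 CPM, and the Igfbp7 cycle ratio of E-cadherin+cKIT- reversed to 0.910, as it did to 0.864 in Prss34-low cells, of which 13 were cycling, and it was 0.897 in Prss34-high cells, of which 908 were. With every cell given the same weight, the sort ratios were 3.47 for Igfbp7, 2.08 for Cyp11a1 and 1.34 for Csrp3, and Cxcl12 was at 1.93 CPM. Thinned to 2000 UMIs they were 3.42, 2.08 and 1.32, and without the 10 most abundant genes in the total 4.13, 1.93 and 1.18. Without the highest Scrublet scores Igfbp7 was at 3.73 and Csrp3 at 1.08. The Grm6 cycle ratio of E-cadherin+cKIT+ reversed to 0.771 with equal weights, 0.804 with G2 and mitosis genes alone and 0.317 in Prss34-low cells. An alternative chosen after seeing the data left out the 1 cell with most Cxcl12 UMIs and gave 0.0538 CPM. Genes past 4-fold between the sorts, in either direction, numbered 73, and 138 with at least 20 CPM in 1 sort.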
